A study of Mus musculus with 12 samples.

Results

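The genes of oxidative phosphorylation were examined in bone marrow of mice that model juvenile myelomonocytic leukaemia through an activating allele of Ptpn11, the gene of the phosphatase Shp2. Members were the protein-coding rows of the count table whose symbol begins with mt-, Nduf followed by a, b, c, s or v, Uqcr, Cox4 to Cox8 followed by a, b or c, or Atp5, together with Sdha, Sdhb, Sdhc and Sdhd. The rule found 108 of 56350 rows, 13 encoded by the mitochondrial genome and 95 by the nucleus. The nuclear rows held 91 symbols. The rule also takes in 8 rows of Ndufaf genes, which encode assembly factors of complex I and not subunits, and it leaves out Cox4i1, Cyc1 and Cycs by their spelling. Of the members, 97 had enough counts to be tested, all 13 mitochondrial and 84 of the 95 nuclear ones.

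All 12 mice carried Shp2E76K/+;LysM-Cre+ on a C57BL/6 background and were 12 to 14 weeks old, and no mouse without the allele was among them. LysM-Cre places the recombinase under the control of Lyz2, a gene of myeloid cells, so the marrow also holds cells in which the allele is not activated. Both sexes were used, and the sex of each mouse is not among the labels. There were 4 groups of 3 mice, and each mouse gave 1 library. The combination group received the MEK inhibitor PD-901 (PD0325901) at 5 mg/kg by mouth in 20 doses over 4 weeks and, into the peritoneum, 5 doses of the DNA methyltransferase inhibitor 5-azacitidine at 5 mg/kg. The PD-901 group and the 5-azacitidine group received that agent alone on the same schedule, and the vehicle group received neither agent.

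Oxidative phosphorylation takes place in the inner mitochondrial membrane. Complexes I and II pass electrons to ubiquinone, complex III passes them on to cytochrome c and complex IV to oxygen, and the proton gradient built by complexes I, III and IV drives ATP synthase, complex V. The mitochondrial genome is transcribed from both strands as long precursors and encodes core subunits of complexes I, III, IV and V, while the nucleus encodes all of complex II, the remaining subunits and the assembly factors. In marrow, proliferating precursors and erythroblasts are rich in mitochondria, and mature neutrophils have few and rely on glycolysis.

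Total counts ran from 15356919 to 27148190 per library, and 18897 to 24194 genes had at least 1 count. Levels are given in CPM, counts brought to a common library size with TMM factors, and "rose" and "fell" mark an adjusted p below 0.05 in edgeR's quasi-likelihood test with Benjamini-Hochberg adjustment over all 17475 tested genes. The marrow label was borne out by mature neutrophil markers, which summed to 26542 to 67603 CPM over the libraries. Xist is the transcript of the inactive X chromosome. It was at 1.73 to 7.13 CPM in the combination libraries and 138 to 724 CPM in the vehicle libraries. Sex and the comparison of these groups therefore cannot be told apart. In the PD-901 libraries Xist was at 1.19, 343 and 148 CPM, and in the 5-azacitidine libraries at 1.32, 237 and 0.555 CPM. Sex, as read from Xist, was thus unbalanced in the other comparisons too. Lyz2 was lowest in combination 1 and 2 (44.9 and 55.8 CPM) and in vehicle 1 and 2 (172 and 147 CPM), against 699 to 4177 CPM in the other libraries. A drop in the number of cells of a type and a drop in RNA per cell cannot be told apart in these bulk samples.

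The 13 mitochondrial genes formed an abundant and a scarce set. Per kilobase of gene and averaged over the 12 libraries, mt-Co1, the catalytic subunit of complex IV, was at 4362 CPM, mt-Cytb of complex III at 1652 and mt-Nd1 of complex I at 1621. The complex I genes mt-Nd6, mt-Nd4, mt-Nd2 and mt-Nd5 followed at 943, 707, 652 and 457 CPM per kilobase. The 6 others, mt-Co2, mt-Atp6, mt-Co3, mt-Atp8, mt-Nd4l and mt-Nd3, were at 31.5 to 2.58 CPM per kilobase, although all genes but mt-Nd6 share the precursor of 1 strand. These 6 genes lie side by side between mt-Co1 and mt-Nd4. GENCODE M21 places 7 pseudogenes, copies of mitochondrial sequence, on the minus strand of chromosome 1 at bases 24611535 to 24616197 of mm10. Of the 7 copies, 5 cover the coding sequence of a scarce gene (mt-Co2, mt-Atp6, mt-Co3, mt-Nd3 and mt-Nd4l) at 99.7 to 100% identity. The remaining copies cover 876 bases of mt-Nd4 at 100% identity and 492 bases of mt-Co1 at 98.8%. mt-Atp8 has no annotated copy and lies between mt-Co2 and mt-Atp6. The sources used here do not say how reads that match several places were counted, and its part in the low counts was not tested.

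The pair below shows how little the copies differ. The first 33 bases of mt-Nd3 (chrM:9459-9491, plus strand) and of its copy Gm28438 (chr1:24613087-24613119, minus strand) carry the 1 difference in 345 aligned bases, T3C counted from the start of mt-Nd3, in capitals.
mt-Nd3: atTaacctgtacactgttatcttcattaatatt
Gm28438: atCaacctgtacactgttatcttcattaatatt
mt-Nd3 averaged 0.899 CPM over the 12 libraries and Gm28438 averaged 13.5 CPM.

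**Figure D1:**
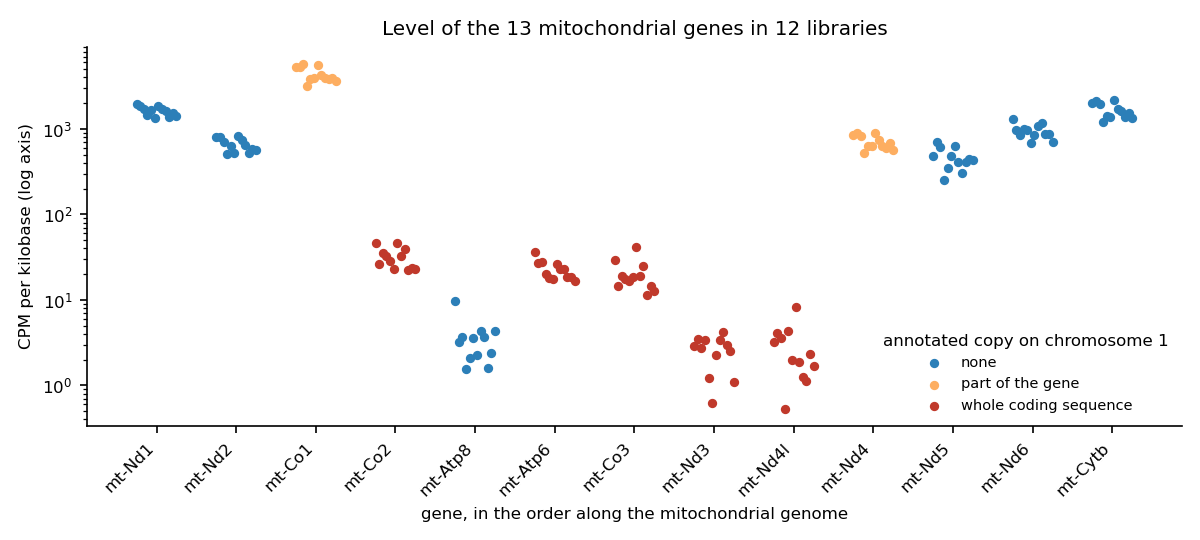
Level of each mitochondrial gene in the 12 libraries, in CPM per kilobase on a log axis, with genes in the order in which they lie on the mitochondrial genome and the colour marking an annotated copy on chromosome 1. The 6 genes between mt-Co1 and mt-Nd4 average 2.58 to 31.5 CPM per kilobase, and the 7 others 457 to 4362.

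With the combination against vehicle, mitochondrially encoded transcripts were higher. Of the 13 genes 5 rose and 0 fell, where 5.78% of all tested genes rose and 7.98% fell. All 13 had a log2 change above 0, against 50.7% of all tested genes, with a median of 0.51 against 0.01 over all tested genes. In 9 of the 13 every combination library was above every vehicle library, against 16.1% of all tested genes.

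mt-Co1 was at 8144, 8122 and 8796 CPM in the combination libraries, against 5843, 6126 and 5573 CPM in the vehicle libraries. The groups did not overlap, and the log2 change was 0.51 ± 0.16 (SE, adjusted p = 0.0401 in edgeR). mt-Cytb, the only complex III subunit encoded in mitochondria, was at 2267, 2431 and 2254 CPM in the combination libraries and at 1572, 1740 and 1532 CPM in the vehicle libraries, a log2 change of 0.52 ± 0.14 (adjusted p = 0.0260). Its lowest combination library was above its highest vehicle library.

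Among the complex I genes mt-Nd4 and mt-Nd2 passed the threshold. mt-Nd4 was at 1180, 1231 and 1144 CPM in the combination libraries and at 832, 942 and 780 CPM in the vehicle libraries, a log2 change of 0.48 ± 0.15 (adjusted p = 0.0459). mt-Nd2 was at 835, 828 and 720 CPM in the combination libraries and at 539, 600 and 581 CPM in the vehicle libraries, a log2 change of 0.47 ± 0.14 (adjusted p = 0.0333). Neither gene had overlapping groups. mt-Nd1 (0.37, adjusted p = 0.0751), mt-Nd5 (0.49, adjusted p = 0.230) and mt-Nd6 (0.35, adjusted p = 0.258), in log2 change, did not pass. mt-Nd1 was at 1886, 1767 and 1651 CPM in the combination libraries and 1315, 1449 and 1354 CPM in the vehicle libraries, again without overlap. mt-Nd5 was at 872, 1284 and 1118 CPM in the combination libraries and 747, 808 and 777 CPM in the vehicle libraries, and combination 1 was close to vehicle. mt-Nd6 is the only member on the minus strand of the mitochondrial genome and its end overlaps that of mt-Nd5, and the sources used here do not say whether reads were counted by strand. The count ratio of mt-Nd6 to mt-Nd5 ran from 0.382 to 1.12 over the libraries.

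In the scarce set mt-Atp6, the proton channel subunit of ATP synthase, rose. It was at 24.95, 18.1 and 18.7 CPM in the combination libraries and at 12.5, 12.6 and 11.3 CPM in the vehicle libraries, a log2 change of 0.76 ± 0.19 (adjusted p = 0.0147). Its copy Gm10925 was at 26.2, 17.4 and 20.4 CPM in the combination libraries and at 12.2, 12.95 and 12.1 CPM in the vehicle libraries, nearly the same levels. The log2 changes of mt-Co2 (0.63, adjusted p = 0.0595) and mt-Co3 (0.69, adjusted p = 0.127), subunits of complex IV, did not pass. mt-Atp8 of ATP synthase and mt-Nd3 and mt-Nd4l of complex I had at most 1.98, 1.48 and 2.44 CPM in any library and gave log2 changes of 0.97, 0.47 and 1.08 with standard errors of 0.79, 0.74 and 0.88. With the counts of each copy added to its mitochondrial gene, 6 of the 13 rose and the median log2 change was 0.49.

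The mitochondrial calls depended on single libraries, and so did the calls over all tested genes. Without combination 1 or without vehicle 1, 0 of the 13 passed. In these fits 285 of 18866 and 278 of 18847 tested genes rose, against 1010 of 17475 with all libraries. Vehicle 1 had 19561 genes detected, the fewest after 5-azacitidine 1 with 18897, against 22087 to 24194 in the other libraries. Without combination 3, vehicle 2 or vehicle 3 there was 1 call in each fit, and without PD-901 2 or PD-901 3, which are in neither group compared, 3 calls in each. Tested genes that rose numbered 381 of 18353, 574 of 18552 and 696 of 18315 in the fits with 1 call. They numbered 793 of 18840 and 898 of 18335 in those with 3. Over the 12 fits that leave out 1 library the median log2 change stayed between 0.48 and 0.58. Without the 4 libraries lowest in Lyz2 the median was 0.56, with combination 3 and vehicle 3 the only libraries left of these groups.

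Nuclear members had a smaller median change. Of the 84 tested 9 rose and 1 fell with the combination against vehicle, beside the 5.78% and 7.98% over all tested genes. A log2 change above 0 was seen in 73 of 84, with a median of 0.27. In 38 of 84 all combination libraries were above all vehicle libraries, against 16.1% of all tested genes. By complex the median log2 change was 0.43 for complex III (7 tested), 0.31 for complex II (4) and 0.25 for complex I subunits (36). It was 0.25 for complex V (16), 0.17 for complex IV (13) and 0.70 for the complex I assembly factors (8). Classes follow the symbols alone, so complex I subunits here are all Nduf genes but the Ndufaf genes, Ndufa4 among them. The summed nuclear members were at 8361, 6898 and 7143 CPM in the combination libraries and 5751.5, 6059.7 and 6456 CPM in the vehicle libraries. The combination libraries were all above the vehicle libraries, combination 1 by the most.

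**Figure D2:**
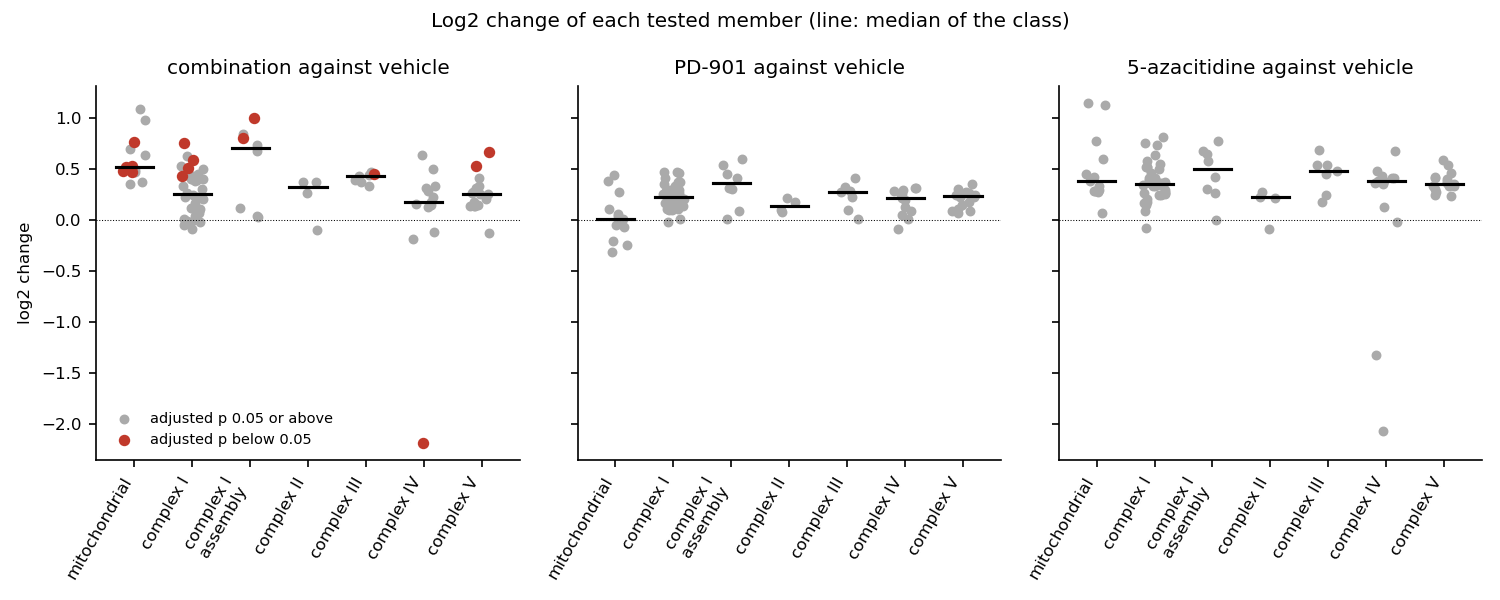
Log2 change of each tested member with the combination, PD-901 and 5-azacitidine against vehicle, by class, with a black line at the median and red points past the threshold. With the combination 15 members are red, 5 mitochondrial and 10 nuclear, and with either agent alone none is.

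Complex I subunits accounted for 4 of the nuclear calls. Ndufs1, which carries iron-sulphur clusters in the electron input arm (chromosome 1, bases 63143596 to 63176833), was at 139.9, 118 and 121 CPM in the combination libraries and 93.5, 95.4 and 92.3 CPM in the vehicle libraries. The groups stood apart, with a log2 change of 0.43 ± 0.12 (adjusted p = 0.0325). Ndufa10, an accessory subunit (chromosome 1, bases 92439010 to 92473860), was at 119.7, 109.9 and 117 CPM in the combination libraries and 70.1, 80.3 and 92.8 CPM in the vehicle libraries, a log2 change of 0.51 ± 0.12 (adjusted p = 0.0132). Ndufab1, the mitochondrial acyl carrier protein (chromosome 7, bases 122085403 to 122101886), was at 72.6, 56.9 and 54.2 CPM in the combination libraries and 38.3, 43.8 and 40.1 CPM in the vehicle libraries, a log2 change of 0.59 ± 0.15 (adjusted p = 0.0177). Combination 1 was the highest library of the 12 for each of these 3 genes. Ndufa12, an accessory subunit added late in assembly (chromosome 10, bases 94198720 to 94221443), was at 47.3, 38.5 and 40.8 CPM in the combination libraries and 19.7, 32.0 and 23.6 CPM in the vehicle libraries, a log2 change of 0.75 ± 0.22 (adjusted p = 0.0352). The X-linked subunits Ndufa1 and Ndufb11 had log2 changes of 0.07 and 0.00, and the X-linked complex IV subunit Cox7b one of 0.14.

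Assembly factors of complex I had the largest median of the classes. Ndufaf2, a paralogue of Ndufa12 that acts late in assembly (chromosome 13, bases 108002715 to 108158623), was at 12.8, 7.84 and 10.01 CPM in the combination libraries and 4.01, 5.66 and 5.69 CPM in the vehicle libraries. That was a log2 change of 0.99 ± 0.29 (adjusted p = 0.0336), the largest among the nuclear members that rose. Ndufaf4, which acts early in assembly (chromosome 4, bases 24898083 to 24905001), was at 28.9, 24.7 and 23.7 CPM in the combination libraries and 9.83, 16.8 and 17.6 CPM in the vehicle libraries, a log2 change of 0.80 ± 0.22 (adjusted p = 0.0260). Neither gene had overlapping groups. Ndufaf6 (log2 change 0.84, adjusted p = 0.0553), Ndufaf5 (0.73, adjusted p = 0.194) and Ndufaf1 (0.67, adjusted p = 0.0715) did not pass, and Ndufaf3, Ndufaf7 and Ndufaf8 had log2 changes of 0.02 to 0.11. The 8 factors summed to 151, 125 and 122 CPM in the combination libraries and 99.7, 97.6 and 103 CPM in the vehicle libraries, with combination 1 the highest of the series.

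Complex II also works in the citric acid cycle and is encoded by the nucleus alone. Sdha, the flavoprotein that oxidises succinate, was at 298.5, 279.6 and 296 CPM in the combination libraries and 221, 230.1 and 226 CPM in the vehicle libraries. Those groups did not overlap, and the log2 change of 0.37 ± 0.12 just missed the threshold (adjusted p = 0.0536). The log2 changes of the other members were smaller, 0.36 for Sdhd and 0.26 for Sdhc, the membrane anchors, and -0.10 for the iron-sulphur subunit Sdhb. In complex III Uqcrc2, a core protein (chromosome 7, bases 120635176 to 120659524), rose. It was at 131, 126 and 142 CPM in the combination libraries and 89.6, 98.9 and 104 CPM in the vehicle libraries, a log2 change of 0.44 ± 0.12 (adjusted p = 0.0212). The 6 other tested complex III genes had log2 changes of 0.33 to 0.46. The nuclear genes of complex III summed to 644, 520.5 and 537 CPM in the combination libraries and 381, 438 and 464 CPM in the vehicle libraries, which did not overlap.

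In complex V the catalytic beta subunit and a gene of the rotating c ring rose. Atp5b (chromosome 10, bases 128083273 to 128090391), the beta subunit, was at 1215, 1074 and 1225.5 CPM in the combination libraries and 753, 795 and 889 CPM in the vehicle libraries, a log2 change of 0.53 ± 0.13 (adjusted p = 0.0135). Atp5g1 (chromosome 11, bases 96068852 to 96075670) was at 140.0, 113 and 114 CPM in the combination libraries and 63.9, 70.2 and 98.4 CPM in the vehicle libraries, a log2 change of 0.66 ± 0.17 (adjusted p = 0.0209). The groups of both genes were apart. Atp5g2 and Atp5g3 encode the same mature c subunit with other import sequences, and their log2 changes were 0.13 and 0.41 with neither past the threshold. Of the 5 nuclear members highest per kilobase, Cox6a1 (334 CPM per kilobase), Cox8a (296), Atp5b (237), Cox6b1 (145) and Atp5c1 (102), only Atp5b passed in this comparison. The nuclear genes of complex V summed to 3102, 2641 and 2755 CPM in the combination libraries and 2077, 2176 and 2393 CPM in the vehicle libraries, which did not overlap. Those of complex IV, at 1393, 1076 and 1141 CPM in the combination libraries and 1001, 1059 and 1116 CPM in the vehicle libraries, overlapped. Of the 11 nuclear members with a log2 change below 0 in this comparison, Cox6a2 passed and the other 10 lay between -0.19 and 0, the lowest p being that of Cox7a2l (adjusted p = 0.659).

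**Figure D3:**
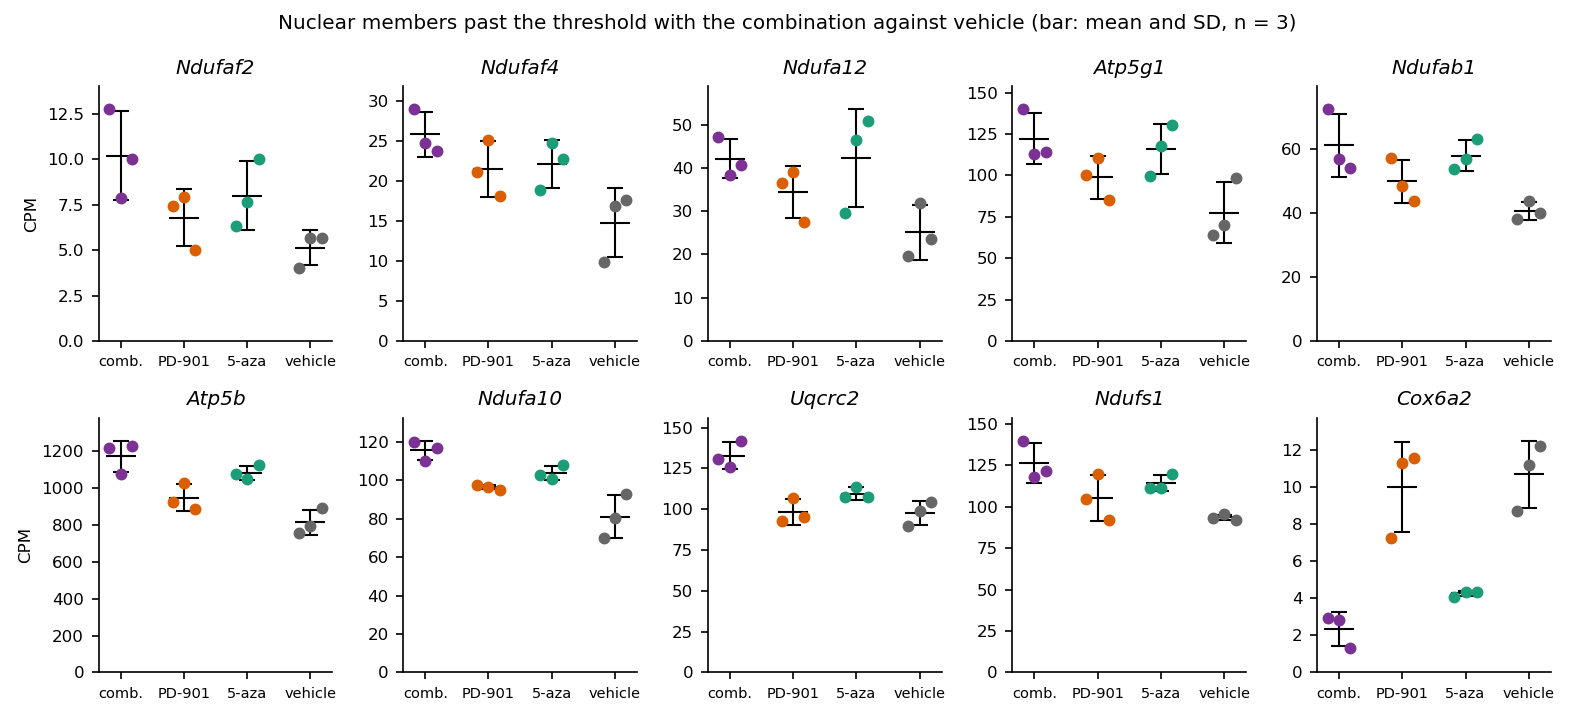
CPM in each library of the 10 nuclear members that passed the threshold with the combination against vehicle, with the mean and SD of 3 libraries in black. For Atp5b the combination libraries sit at 1074 to 1225.5 CPM and the vehicle libraries at 753 to 889, and Cox6a2 is the gene that is lower with the combination.

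These nuclear calls, too, depended on single libraries, as did the calls over all tested genes. Of the 84 members 0 rose without combination 1 or without vehicle 1, 2 rose without combination 3 and 3 without vehicle 2. In these fits 285 of 18866, 278 of 18847, 381 of 18353 and 574 of 18552 tested genes rose, in that order. The nuclear median log2 change was 0.17 without combination 1. Without the 4 libraries lowest in Lyz2, which left only combination 3 and vehicle 3 of these groups, the median log2 change was 0.05. With a term for high Xist in the model 0 members and 0 of all tested genes passed, with medians of 0.56 for the mitochondrial and 0.22 for the nuclear members. Markers of other cell types moved in the same comparison. All 18 erythroid markers rose, summing to 3385 to 10213 CPM in the combination libraries and 2029 to 3231 CPM in the vehicle libraries, and 15 of 18 cell cycle genes rose, summing to 6626 to 7965 CPM in the combination libraries and 4410.3 to 5323 CPM in the vehicle libraries. Of 12 mature neutrophil markers 6 fell, summing to 26542 to 31409 CPM in the combination libraries and 32813 to 67603 CPM in the vehicle libraries, and 9 of 14 monocyte and macrophage markers fell, summing to 1978 to 3594 CPM in the combination libraries and 4136 to 5303 CPM in the vehicle libraries. Of 15 B lineage markers 12 fell, summing to 111 to 281 CPM in the combination libraries and 502 to 570.0 CPM in the vehicle libraries, and 6 of 9 primary granule genes of promyelocytes rose, summing to 6636 to 9958 CPM in the combination libraries and 5189.9 to 6021 CPM in the vehicle libraries. No gene of these lists was at 0 in all libraries, and their part in the changes of the members was not tested.

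Cox6a2 was the member with the largest difference and the only one that fell. It encodes the heart and skeletal muscle isoform of a complex IV subunit whose isoform in other tissues is Cox6a1, and in mouse it is also known as a gene of plasmacytoid dendritic cells. Cox6a2 (chromosome 7, bases 128205435 to 128206387) was at 2.95, 2.80 and 1.30 CPM in the combination libraries, 7.21, 11.3 and 11.5 CPM in the PD-901 libraries, 4.08, 4.32 and 4.35 CPM in the 5-azacitidine libraries, against 8.68, 11.2 and 12.2 CPM in the vehicle libraries. The combination libraries were the lowest of the series, all 5-azacitidine libraries lay between them and the rest, and PD-901 overlapped with vehicle. The combination libraries held 33 to 58 counts of the gene and the vehicle libraries 158 to 289. The fall against vehicle was 4.57-fold, a log2 change of -2.19 ± 0.33 (adjusted p = 0.00290 in edgeR), and it passed in each of the 12 fits that leave out 1 library. With the term for high Xist it was -1.83 (adjusted p = 0.0730).

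Cox6a1, at 260, 182 and 225 CPM in the combination libraries and 195, 193 and 214 CPM in the vehicle libraries, had a log2 change of 0.15. Those groups overlapped. Siglech, a receptor of plasmacytoid dendritic cells, was at 15.6, 22.4 and 3.74 CPM in the combination libraries and 64.7, 73.8 and 76.8 CPM in the vehicle libraries. Ccr9, a chemokine receptor of the same cells, was at 4.42, 8.56 and 3.86 CPM in the combination libraries and 14.6, 21.3 and 22.8 CPM in the vehicle libraries. Both genes were thus low in the libraries in which Cox6a2 was low, those of 5-azacitidine included. Their log2 changes with the combination against 5-azacitidine were -0.15 and -0.01, whereas Cox6a2 was lower in every combination library. Of 12 dendritic cell markers 9 fell with the combination, and the list summed to 593 to 676 CPM in the combination libraries and 1309 to 4490 CPM in the vehicle libraries, with no marker at 0 throughout. With 5-azacitidine against vehicle 0 of the 12 markers passed (0% of all tested genes fell), with a median log2 change of -0.495. Of these markers 2, Xcr1 (0.41) and Zbtb46 (0.01), were above 0. The list summed to 871 to 3591 CPM in the 5-azacitidine libraries, which overlapped with vehicle. The part of these cells in the fall of Cox6a2 was not tested.

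**Figure D4:**
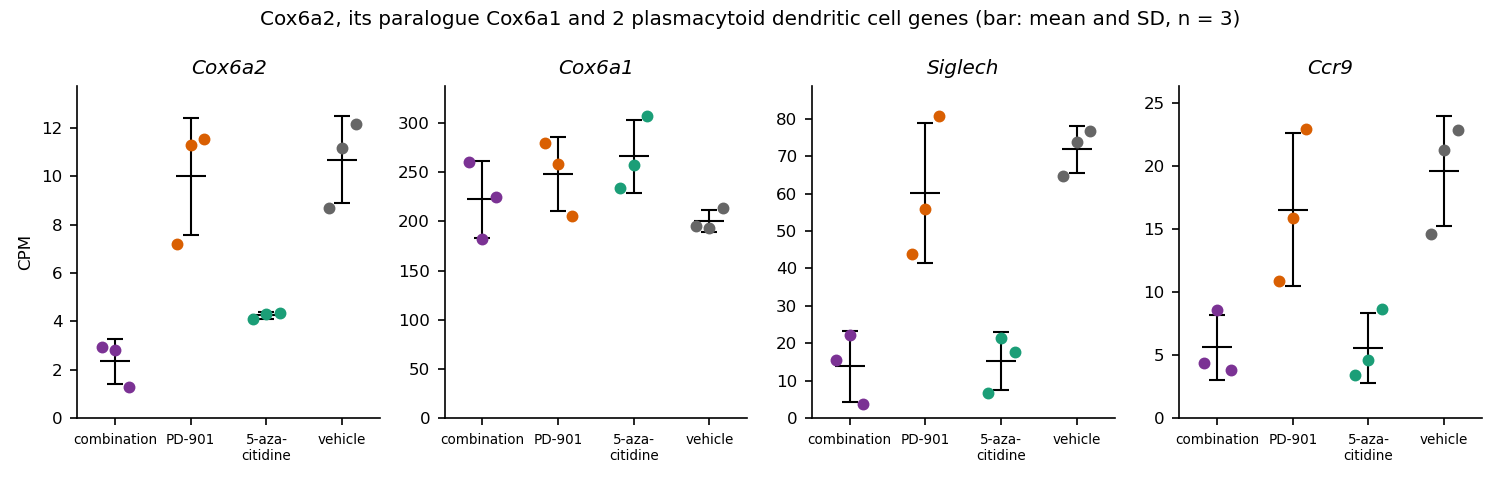
CPM of Cox6a2, its paralogue Cox6a1 and the plasmacytoid dendritic cell genes Siglech and Ccr9 in each library, with the mean and SD of 3 libraries in black. Cox6a2 is at 1.30 to 2.95 CPM with the combination and 8.68 to 12.2 CPM with vehicle, and Siglech at 3.74 to 22.4 CPM with the combination and 64.7 to 76.8 CPM with vehicle.

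Of the other isoforms known from muscle, testis or hypoxic cells, all but Cox6b2 were scarce. Cox7a1, the muscle isoform of Cox7a2, was at 0.739 CPM on average. It was listed at 0 counts in 5-azacitidine 1 and at 6 counts in each of the other 5-azacitidine libraries, against 18 to 21 counts in the vehicle libraries, and its log2 change of -2.07 ± 0.93 did not pass (adjusted p = 0.307). Ndufa4l2, Cox7b2, Cox8b and Cox8c had too few counts to be tested. Cox6b2, a testis isoform, was at 44.7, 17.6 and 46.0 CPM in the combination libraries and 26.96, 23.6 and 19.4 CPM in the vehicle libraries, so the groups overlapped. Of the ubiquitous isoforms Cox7a2 and Cox7a2l had log2 changes of 0.28 and -0.12, Cox6b1 of 0.22, Cox8a of 0.12, and Ndufa4 of 0.22. Uqcrc1, Ndufs3 and Atp5a1, core genes of complexes III, I and V, had at most 9 counts in any library. Each has a row of the same symbol and length on a patch scaffold of the assembly. Among the 230 protein-coding symbols with such a pair, 226 chromosomal rows (98.3%) averaged below 1 CPM, against 45.6% of all 21823 protein-coding chromosomal rows. No level is given for these 3 genes, and the second row of Atp5o held 0 counts.

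Against PD-901 alone, the comparison that adds 5-azacitidine to the inhibitor, mitochondrial members were higher with the combination and the nuclear median was close to 0. Of the 13 mitochondrial genes 4 rose with the combination against PD-901 (1.69% of all tested genes rose and 5.12% fell), with a median log2 change of 0.56 and all 13 above 0. They were mt-Cytb (0.60 ± 0.14, adjusted p = 0.0215), mt-Atp6 (0.71 ± 0.19, adjusted p = 0.0325), mt-Co1 (0.56 ± 0.16, adjusted p = 0.0425) and mt-Nd4 (0.53 ± 0.15, adjusted p = 0.0436). This comparison and that with vehicle use the same combination libraries. mt-Co1 in the PD-901 libraries was at 4947, 5886 and 6141 CPM and mt-Cytb at 1387.5, 1633 and 1576 CPM, all below the combination libraries. Of the 84 nuclear members 1 rose, Uqcrc2 (0.44 ± 0.12, adjusted p = 0.0355), and 1 fell, Cox6a2 (-2.10 ± 0.33, adjusted p = 0.00328). The nuclear median was 0.05, with 56 of 84 log2 changes above 0, against 50.8% of all tested genes. At an unadjusted p under 0.05 there were 6 of 84 nuclear and 7 of 13 mitochondrial members, against 21.7% of all tested genes. All combination libraries were above all PD-901 libraries in 7 mitochondrial and 5 nuclear members (12.7% of all tested genes) and below them in 0 and 3 (15%). Cox6a2 passed in each of the 12 fits that leave out 1 library. In the same comparison 8 of 12 mature neutrophil markers fell, summing to 26542 to 31409 CPM in the combination libraries and 43929.6 to 67102 CPM in the PD-901 libraries. Of the 15 B lineage markers 13 fell, summing to 111 to 281 CPM in the combination libraries and 719 to 825 CPM in the PD-901 libraries. Of the 18 cell cycle genes 7 rose, summing to 6626 to 7965 CPM in the combination libraries and 5204 to 5586.5 CPM in the PD-901 libraries. None of these 3 sums overlapped, and their part in the members' changes was not tested. With the term for high Xist, 0 of the 13 mitochondrial genes passed. The Xist term left 34 of 17475 tested genes higher. There were 0 mitochondrial calls without combination 1, combination 3 or PD-901 1, 1 without PD-901 2, PD-901 3 or vehicle 2, and 2 without 5-azacitidine 2. Tested genes that rose numbered 60 of 18866, 67 of 18353 and 35 of 18585 in the fits with 0 calls. They numbered 132 of 18840, 99 of 18335 and 163 of 18552 in those with 1 call. With 2 calls they numbered 264 of 18943, against 296 of 17475 with all libraries. The nuclear median was -0.06 without combination 1, -0.04 without PD-901 3 and 0.09 to 0.12 without any other library of these groups. The call of Uqcrc2 was lost without combination 1, combination 3, any PD-901 library, 5-azacitidine 2 or vehicle 2, and 2 nuclear members rose without combination 2.

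PD-901 alone against vehicle gave 0 calls among the members in edgeR, DESeq2 and limma-voom. Of all 17475 tested genes edgeR called 0% and limma-voom 0 in either direction, and DESeq2 called 2 higher and 3 lower. At an unadjusted p under 0.05 there were 4 of 84 nuclear and 0 of 13 mitochondrial members, where 4.88% of all tested genes reached it. Nuclear log2 changes were above 0 in 82 of 84, with a median of 0.22, and mitochondrial ones in 7 of 13, with a median of 0.00, against 51.6% of all tested genes. All PD-901 libraries were above all vehicle libraries in 11 nuclear members and 1 mitochondrial member (6.83% of all tested genes), and below them in 0 members (5.93%). The largest nuclear log2 changes were those of the assembly factors Ndufaf5 (0.59) and Ndufaf4 (0.53), Ndufb2 (0.47), Ndufa5 (0.47), Ndufa12 (0.45) and Ndufaf1 (0.45), each with adjusted p = 0.960. The summed nuclear members were at 7509, 7454 and 6118 CPM in the PD-901 libraries and 5751.5, 6059.7 and 6456 CPM in the vehicle libraries, with PD-901 3 inside the range of vehicle. Marker lists stood apart in the same libraries, though no marker passed in edgeR. The 18 erythroid markers, all with a log2 change above 0 (median 0.68), summed to 4185 to 5656.5 CPM in the PD-901 libraries and 2029 to 3231 CPM in the vehicle libraries, which did not overlap. The 14 monocyte and macrophage markers (1 above 0, median -0.48) summed to 2866.5 to 3427 CPM in the PD-901 libraries and 4136 to 5303 CPM in the vehicle libraries, also without overlap. Of the 18 cell cycle genes 17 were above 0 (median 0.24), with overlapping sums of 5204 to 5586.5 CPM in the PD-901 libraries and 4410.3 to 5323 CPM in the vehicle libraries. The 15 B lineage markers (14 above 0, median 0.55) also stood apart. They summed to 719 to 825 CPM in the PD-901 libraries and 502 to 570.0 CPM in the vehicle libraries. No marker of these 4 lists was at 0 in all libraries, and their part in the nuclear values was not tested. mt-Nd1 was at 1376, 1576 and 1281 CPM in the PD-901 libraries, around the vehicle libraries, and mt-Nd5 at 454, 630.3 and 872 CPM, spread more widely than vehicle.

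5-Azacitidine alone against vehicle also gave 0 calls among the members in edgeR and limma-voom. Of all tested genes 0.00572% rose and 0% fell in edgeR, and limma-voom called 2 higher and 0 lower. DESeq2 called 3 mitochondrial and 9 nuclear members higher and 1 nuclear member lower, beside 291 higher and 322 lower of 17475 tested genes. At an unadjusted p under 0.05 in edgeR there were 45 of 84 nuclear and 5 of 13 mitochondrial members, where 15.3% of all tested genes reached it. Nuclear log2 changes were above 0 in 78 of 84 and mitochondrial ones in 13 of 13, against 49.2% of all tested genes, with medians of 0.36 and 0.38. All 5-azacitidine libraries were above all vehicle libraries in 38 nuclear and 7 mitochondrial members (10.8% of all tested genes), and below them in 2 nuclear members, Cox6a2 and Cox7a1 (9.77%). The largest log2 changes were those of Cox7a1 (-2.07), Cox6a2 (-1.33, adjusted p = 0.128), mt-Co3 (1.14, adjusted p = 0.130), mt-Nd4l (1.12), Ndufs6 of complex I (0.81, adjusted p = 0.137) and mt-Co2 (0.77, adjusted p = 0.137). mt-Co3 was at 32.6, 14.96 and 19.7 CPM in the 5-azacitidine libraries and 9.01, 11.4 and 10.02 CPM in the vehicle libraries, with 5-azacitidine 1 far above the rest. That library also had the fewest genes detected, 18897. Ndufs6 was at 34.1, 33.7 and 40.8 CPM in the 5-azacitidine libraries and 15.9, 20.4 and 25.5 CPM in the vehicle libraries, without overlap. mt-Co1 was at 8588, 6566 and 6136 CPM in the 5-azacitidine libraries, of which the last was close to the highest vehicle library at 6126 CPM. By class the median log2 change was 0.50 for the assembly factors, 0.48 for complex III, 0.37 for complex IV, 0.35 for complexes I and V, and 0.22 for complex II. Here, too, marker lists stood apart without a marker past the threshold in edgeR. The erythroid markers (18 of 18 above 0, median 0.70) summed to 4489 to 4688 CPM in the 5-azacitidine libraries and 2029 to 3231 CPM in the vehicle libraries. The cell cycle genes (18 of 18 above 0, median 0.39) summed to 5547 to 6384 CPM in the 5-azacitidine libraries and 4410.3 to 5323 CPM in the vehicle libraries. The primary granule genes (9 of 9 above 0, median 0.80) summed to 6551 to 11507 CPM in the 5-azacitidine libraries and 5189.9 to 6021 CPM in the vehicle libraries. The monocyte and macrophage markers (0 of 14 above 0, median -0.72) summed to 2439.8 to 3453 CPM in the 5-azacitidine libraries and 4136 to 5303 CPM in the vehicle libraries. None of these 4 sums overlapped between the groups, no marker of them was at 0 throughout, and their part in the members' values was not tested. PD-901 and 5-azacitidine were set against the same vehicle libraries, so their member values are not independent of each other.

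The balance of mitochondrial to nuclear transcripts overlapped between all groups. Summed mitochondrial members were at 15941, 16218 and 16187.5 CPM in the combination libraries, 9970.4, 11803 and 11674 CPM in the PD-901 libraries, 16595, 13282 and 12329.5 CPM in the 5-azacitidine libraries, against 11339, 12163 and 11001 CPM in the vehicle libraries. The combination libraries were close together and above all PD-901 and vehicle libraries, and 5-azacitidine 1 was above them. The log2 ratio of the mitochondrial to the nuclear sum was 0.93, 1.23 and 1.18 in the combination libraries, 0.41, 0.66 and 0.93 in the PD-901 libraries, 1.30, 0.76 and 0.50 in the 5-azacitidine libraries, against 0.98, 1.00 and 0.77 in the vehicle libraries. The ratio was highest in 5-azacitidine 1 and lowest in PD-901 1, and the 5-azacitidine libraries spread the most. In 5-azacitidine 1 the mitochondrial sum was the highest and the nuclear sum the lowest of its group, and in combination 1 the mitochondrial sum was the lowest and the nuclear sum the highest of its group. The mitochondrial ribosomal RNAs summed to 574 to 760 CPM in the combination libraries and 545 to 738 CPM in the vehicle libraries, which overlapped. Mitochondrial members took 0.927 to 1.72% of all counts of a library and nuclear members 0.551 to 0.893%. The scarce mitochondrial genes and Uqcrc1, Ndufs3 and Atp5a1 added little to these sums and shares, given their low counts. mt-Co1 alone averaged 6739 CPM over the 12 libraries.

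**Figure D5:**
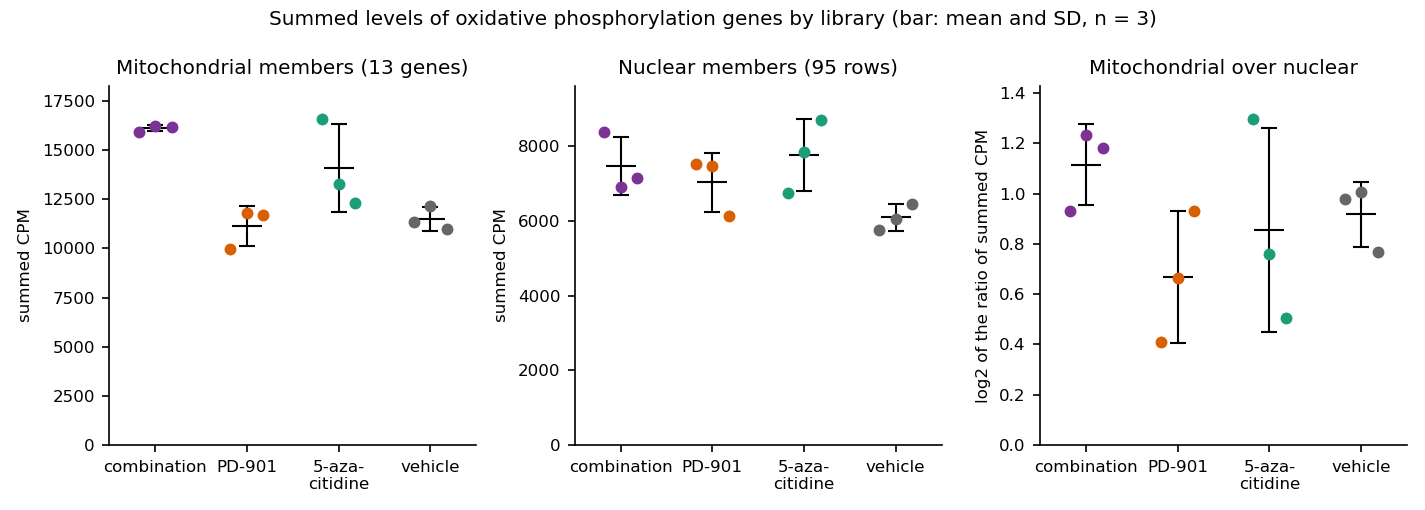
Summed CPM of the mitochondrial members, of the nuclear members, and the log2 ratio of these sums in each library, with the mean and SD of 3 libraries in black. The combination libraries lie at 15941 to 16218 CPM for mitochondrial members and the vehicle libraries at 11001 to 12163, while the ratios overlap at 0.93 to 1.23 with the combination and 0.77 to 1.00 with vehicle.

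The combination against 5-azacitidine gave 0 calls among the members in edgeR, DESeq2 and limma-voom. Of all tested genes 0.252% rose and 1.07% fell in edgeR. DESeq2 called 288 of the 17475 tested genes higher and 760 lower, and limma-voom 31 and 158. At an unadjusted p under 0.05 there were 8 of 84 nuclear and 0 of 13 mitochondrial members, against 15.8% of all tested genes. The nuclear median was -0.10 and the mitochondrial median 0.10, with 27 of 84 and 9 of 13 log2 changes above 0 and 50.3% over all tested genes. All combination libraries were above all 5-azacitidine libraries in 3 nuclear members and 1 mitochondrial member (9.1% of all tested genes) and below them in 8 nuclear members (9.54%). Without 5-azacitidine 1 the nuclear median was -0.22 and the mitochondrial median 0.28, without combination 1 they were -0.21 and 0.04, and without 5-azacitidine 3 the nuclear median was 0.03. The lowest p belonged to Ndufa13 of complex I (log2 change -0.40, adjusted p = 0.176), at 56.9, 52.0 and 57.9 CPM in the combination libraries and 63.4, 74.1 and 82.8 CPM in the 5-azacitidine libraries, which did not overlap. The departure from additivity, the log2 change with the combination less the sum of those with each agent, passed for 0 members and 0% of all tested genes in edgeR. DESeq2 called 1 nuclear member lower, beside 75 of 17475 tested genes higher and 213 lower. Limma-voom called 0 members and 0 of all tested genes. The departure was below 0 in 77 of 84 nuclear members, with a median of -0.31, and above 0 in the other 7 and in 9 of 13 mitochondrial members, with a mitochondrial median of 0.19, where 48.2% of all tested genes were above 0. Over the fits without 1 library the nuclear median ran from -0.43, without 5-azacitidine 1, to -0.19, without 5-azacitidine 3, and the mitochondrial median from 0.01, without PD-901 3, to 0.34, without 5-azacitidine 1. At an unadjusted p under 0.05 there were 9 nuclear members and 1 mitochondrial one, against 10.7% of all tested genes.

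Promoter windows of RefSeq (build GRCm38.p6), from 250 bases before to 50 after the start of a gene, were found for 75 of the 91 nuclear symbols. They were searched on both strands for the letters of 4 factors known to bind promoters of respiratory genes. GCGCATGCG, the NRF1 motif, was in 13.3% of the members and 3.85% of 10730 tested protein-coding genes. AAGATGGC, of YY1, was in 13.3% and 4.90%, CCGGAAG, of GABPA, in 25.3% and 18.8%, and TCAAGGTCA, of the ERR receptors, in 2.67% and 0.326%. Of the 9 nuclear members that rose with the combination 7 had a window, and 1 of them, Ndufaf4, held any of the 4 motifs, which 45.3% of the nuclear members and 25.5% of the tested protein-coding genes did. The window of Ndufaf4 (chr4:24897833-24898132, plus strand) and that of Cox6a1 (chr5:115348909-115349208, minus strand), the nuclear member highest per kilobase, are given with the motif letters in capitals. In both the NRF1 letters are read on either strand over the same 10 bases, and in Cox6a1 the second run is GABPA on the opposite strand.
Ndufaf4: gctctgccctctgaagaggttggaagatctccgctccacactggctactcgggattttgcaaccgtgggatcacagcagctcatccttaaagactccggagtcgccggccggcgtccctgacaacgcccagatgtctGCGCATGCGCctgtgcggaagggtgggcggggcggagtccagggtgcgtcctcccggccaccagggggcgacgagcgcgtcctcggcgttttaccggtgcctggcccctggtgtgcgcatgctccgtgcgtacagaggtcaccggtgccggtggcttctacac
Cox6a1: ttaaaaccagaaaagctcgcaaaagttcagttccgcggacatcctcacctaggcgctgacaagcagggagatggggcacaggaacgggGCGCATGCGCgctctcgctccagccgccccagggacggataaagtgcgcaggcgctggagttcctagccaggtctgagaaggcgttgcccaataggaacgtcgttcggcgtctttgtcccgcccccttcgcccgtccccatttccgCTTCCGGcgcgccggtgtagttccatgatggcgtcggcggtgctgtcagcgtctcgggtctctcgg
A match of letters is a description and not a binding site.

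Other genes of the same organelle were counted from lists that share no gene with the members. With the combination against vehicle 10 of 25 mitochondrial chaperone, protease and import genes rose and 0 fell, with a median log2 change of 0.47, beside the 5.78% of all tested genes that rose and the 7.98% that fell. They were led by the chaperonins Hspe1 (1.06, adjusted p = 0.00356) and Hspd1 (1.00, adjusted p = 0.00372), Hspa9 (0.74, adjusted p = 0.00945), which pulls proteins into the matrix, and the protease Lonp1 (0.51, adjusted p = 0.0132). Of 36 genes of mitochondrial DNA replication, transcription, RNA handling and translation 6 rose (median 0.34), among them Gfm1 (0.81), an elongation factor of mitochondrial translation, and Lrpprc (0.72), which stabilises mitochondrial messenger RNAs. Of 75 mitochondrial ribosomal proteins 8 rose and 1 fell (median 0.39). Of 26 genes of the citric acid cycle and pyruvate dehydrogenase 5 rose, led by the pyruvate dehydrogenase kinase Pdk1 (1.01) and by Idh3a (0.68). Among 27 genes of other chain components, quinone synthesis, electron transfer flavoproteins, and adenine nucleotide, phosphate and outer membrane transport 4 rose, the electron transfer genes Etfdh (0.52) and Etfa (0.52), cytochrome c1 Cyc1 (0.44) and the outer membrane channel Vdac1 (0.43). Of 39 assembly genes for complexes II to V 2 rose, Cmc2 (0.86) and Coa5 (0.40), a share no higher than that over all tested genes. Of 17 nuclear regulators of mitochondrial genes 3 fell and 0 rose, Pparg (-2.30), Tfeb (-1.09) and Tfe3 (-0.48), the last of these being with Tfeb a regulator of lysosomal genes. Of 16 genes of mitophagy, dynamics and uncoupling, Bcl2l13 rose (0.67) and Pink1 fell (-0.55). All values in this paragraph are log2 changes, beside a median of 0.01 over all tested genes.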

How the data were processed

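RNA from bone marrow of 12 mice was sequenced in read pairs after a low-input library kit, per the labels. The authors deposited 1 table of raw read counts per gene, with 1 column for each library, not normalized. Per the submitters' processing notes, build mm10 was used, along with STAR 2.7.2a, bcl2fastq, Subread 1.6.5 and featureCounts. The sources used here do not give the annotation, the strand setting or the treatment of reads that match several places. Each library came from its own mouse, and its number is only a name.

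The deposited counts went into edgeR 4.0.16 under R 4.3.3. The low-count filter was filterByExpr (minimum count 10, minimum total 15), libraries were scaled by TMM, and a quasi-likelihood model with 1 mean per group was fitted to all 12 libraries (8 residual degrees of freedom, common biological coefficient of variation 0.328). The tests were two-sided, with Benjamini-Hochberg adjustment over the 17475 tested genes of a comparison. The code was tested on simulated data. Libraries of a group differed beyond sampling noise (chi-square divided by its degrees of freedom, 19.9 to 71.2). Alternatives were DESeq2 1.42.0, limma-voom (limma 3.58.1), other scalings and filters, fits of the 2 groups compared, a term for Xist above 100 CPM, and leaving out libraries. The counts of pseudogene copies and the libraries lowest in Lyz2 were added to these after seeing the data.

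The members, gene lists and tests were chosen with earlier results of these data known. Named genes were all mitochondrial members, up to 12 nuclear members with the lowest p in each direction with the combination against vehicle, members past the threshold elsewhere, the 5 highest nuclear members per kilobase, complex II, tissue isoforms, X-linked members, the 6 largest changes with each agent, and up to 4 genes of each other list. Sequences came from GENCODE M21 transcripts and RefSeq promoters, and coordinates are those of mm10.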

Additional observations from a re-analysis of the deposited data

How the results depend on the processing

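No paired analysis was possible because each library came from its own mouse and the labels give no pairing. The counts below are members higher, unless stated, at an adjusted p below 0.05. Combination against vehicle gave 5 mitochondrial and 9 nuclear members. With the Xist term these became 0 and 0, and the 1 nuclear member lower became 0, beside 0 of all tested genes in either direction. The fit without the 4 libraries lowest in Lyz2 left only combination 3 and vehicle 3 of these groups, so no count of calls is given. With no low-count filter the mitochondrial count was 8. Without that filter 1070 of 34450 genes were higher, against 1010 of 17475 in the main fit. Combination against PD-901 gave 4 mitochondrial and 1 nuclear member, beside 296 of 17475 tested genes higher. DESeq2 gave 7 and 2, and the Xist term 0 and 0. The nuclear count there was 0 with no low-count filter and 0 in the fit of the 2 groups compared. All tested genes higher in that comparison were 763 of 17475 with DESeq2 and 34 of 17475 with the Xist term. They were 503 of 34450 with no low-count filter and 288 of 15955 in the fit of the 2 groups. 5-Azacitidine against vehicle gave 0 members. DESeq2 gave 3 mitochondrial and 9 nuclear members higher and 1 nuclear member lower, and no low-count filter gave 2, 6 and 1. Over all tested genes DESeq2 called 291 higher and 322 lower of 17475, and no low-count filter 225 and 347 of 34450. Combination against 5-azacitidine gave 1 nuclear member with no low-count filter, and the departure from additivity 1 nuclear member lower with DESeq2, against 0 in both with edgeR. Over all genes, 282 of 34450 were higher in the former fit and 213 of 17475 lower in the latter. The cause of these differences was not tested.

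Leaving out 1 library at a time gave 0 to 5 mitochondrial and 0 to 12 nuclear members for the combination against vehicle, and 0 to 6 and 0 to 2 against PD-901. All tested genes higher in these fits numbered 278 to 1124 against vehicle and 35 to 427 against PD-901. For 5-azacitidine against vehicle 0 to 1 mitochondrial members were called, the call coming without 5-azacitidine 2 (32 of 18943 genes higher). For the combination against 5-azacitidine 0 to 1 nuclear members were called, the call coming without combination 2 (200 of 18933). Where a group was left with 1 library, that library was assumed to vary like the others. No called member changed its direction under any alternative run. The few counts of mt-Atp8, mt-Nd3, mt-Nd4l and Cox7a1 limit what could be seen for them.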
